A study of Homo sapiens and Mus musculus with 18 samples.

Results

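The desmosome and plakin genes were followed in 2 human pancreatic cancer lines in which keratin 17 (K17, gene KRT17) had been removed or added. The group is a named list of 10 genes, DSP, PPL, EVPL, JUP, PKP2, PKP3, PKP4, DSC2, DSC3 and DSG2, taken by symbol from the 34505 human gene rows, and all 10 had a row. The study profiled RNA from 18 samples of 3 cultured lines by sequencing, with 3 libraries in each of 6 groups. In L3.6, labelled a pancreatic adenosquamous carcinoma, K17 knockout cells made with CRISPR-Cas9 were set against K17 wild-type cells. In PANC-1, labelled a pancreatic ductal adenocarcinoma, cells over-expressing K17 were set against cells with an empty vector. The mouse KPC line was also given K17 or an empty vector, but none of its 34471 row identifiers could be paired with a gene name, so it was not analysed here. All groups grew in the same serum-supplemented medium. Whether the knockout is 1 clone or a pool, whether the wild-type cells carried a control guide, and which promoter drove K17 are not stated in the sources at hand. The labels do not say whether the 3 libraries of a group came from separate cultures, so the p-values measure the spread between these libraries, which may be technical.

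Desmosomes are adhesive junctions that tie the keratin filaments of neighbouring epithelial cells together. Desmocollins (DSC2, DSC3) and desmogleins (DSG2) are cadherins that span the membrane and bind across the gap between cells. Their tails bind the armadillo proteins plakoglobin (JUP) and the plakophilins (PKP2, PKP3, PKP4), and these bind desmoplakin (DSP), a plakin that holds the keratin filaments. Periplakin (PPL) and envoplakin (EVPL) are related plakins that pair with each other, reach desmosomes and are best known as precursors of the cornified envelope of squamous epithelium. Simple epithelia such as pancreatic ducts rely mainly on DSG2 and DSC2, whereas DSC3 is typical of stratified epithelia. Keratin 17 is itself one of the filament proteins that desmosomes anchor.

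The genes lie on 7 chromosomes in GRCh38 (GENCODE 29). The 3 cadherin genes, DSC3, DSC2 and DSG2, lie close together. DSP is at chr6:7541575-7586717, PKP2 at chr12:32790745-32896840, PKP3 at chr11:392614-404908 and PKP4 at chr2:158456964-158682879. JUP at chr17:41754604-41786931 and EVPL at chr17:76004502-76027452 share chromosome 17 with KRT17 (chr17:41619441-41624842), and PPL is at chr16:4882507-4960741. No exon of any of the 10 genes overlapped an exon of another annotated gene among the rows.

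DSP was the member whose test passed within each line and in the comparison of the lines, so the stretch just upstream of it is shown. The sequence is part of the RefSeq promoter window (GRCh38.p14), kept to the 154 bases upstream of every annotated start, at chr6:7541421-7541574 on the plus strand. Capitals mark matches, on either strand, to a GC box (GGGCGG or CCGCCC) or to an E-box of the kind bound by ZEB and SNAI repressors (CAGGTG or CACCTG).
DSP: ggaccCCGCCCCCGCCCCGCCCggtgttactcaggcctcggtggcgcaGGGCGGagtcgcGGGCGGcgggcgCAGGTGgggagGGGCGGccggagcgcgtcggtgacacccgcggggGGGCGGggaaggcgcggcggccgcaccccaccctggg
The stretch held 7 GC boxes, 2 of which share a base, and 1 E-box, which starts 178 bases before the RefSeq start. The remainder of the window had a second E-box and a grainyhead core (AACCGG or CCGGTT) beside it. Among all 35116 windows of 300 bases, 45% held a GC box, 20.6% an E-box and 7.23% a grainyhead core, so each kind of match is found in many promoters.

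Of the members' windows searched the same way, DSC2 had an E-box and DSC3 a grainyhead core, both upstream of every annotated start, and DSG2 and JUP had E-boxes too. A grainyhead core was matched in DSP and DSC3 among the 6 genes with a window (DSP, DSC2, DSC3, DSG2, PKP4 and JUP). The AP-1 motif TGANTCA, found in 7.71% of all windows, was not matched in any of the 6. Nor was the TATA motif TATAAA on either strand, found in 11.5%. A match is a string of letters and not a measured binding site.

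The K17 manipulations were visible in the KRT17 row. KRT17 stood at 15.6, 14.7 and 13.5 CPM (counts scaled to a common library size, with TMM factors within each line) in the knockout libraries, against 105, 121 and 120 CPM in the wild-type libraries of L3.6. In PANC-1 it stood at 139, 165 and 149 CPM with K17, against 2, 0 and 0 counts with the empty vector. Library totals ran between 9485257 and 15476629 counts in L3.6 and between 59671178 and 70789559 counts in PANC-1, so low genes are measured less finely in L3.6. Empty vector replicate 2 stood apart, with 18.8% of its counts on mitochondrial genes, against 9.88% to 10.8% in the other PANC-1 libraries, and the members' fold changes in PANC-1 are therefore given with and without it. Some rows may miss reads of their gene: in L3.6 the keratin KRT18 stood between 8.59 and 26 CPM beside 1111 to 1386 CPM for its filament partner KRT8, and the epithelial cadherin CDH1 at 0.575 to 3.17 CPM beside 425 to 497 CPM for EPCAM. A level near 0 is thus given as a row's level, not as absence of the transcript.

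In L3.6, 4 desmosomal genes rose in K17 knockout cells: the plakin DSP, the armadillo proteins JUP and PKP2, and the desmosomal cadherin DSC3. DSP rose most, 1.67-fold, and the other 3 rose between 1.2-fold and 1.32-fold. None of the 9 genes tested fell by edgeR with TMM factors or by DESeq2, and DSG2 had too few counts to test. EVPL was lower at an unadjusted p of 0.0131, and edgeR with upper-quartile factors in place of TMM called it lower (-0.20, edgeR adjusted p = 0.0254). Genes were called at a Benjamini-Hochberg adjusted p under 0.05 from edgeR's quasi-likelihood test over all 13891 genes kept, among which 9.61% were called, 6.1% higher and 3.51% lower in the knockout. The median log2 fold change was 0.16 over the 9 genes and -0.01 over all genes tested. How many of all genes had groups that did not overlap was not counted in either line. Lack of overlap is therefore given only as a description of each gene.

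**Figure D1:**
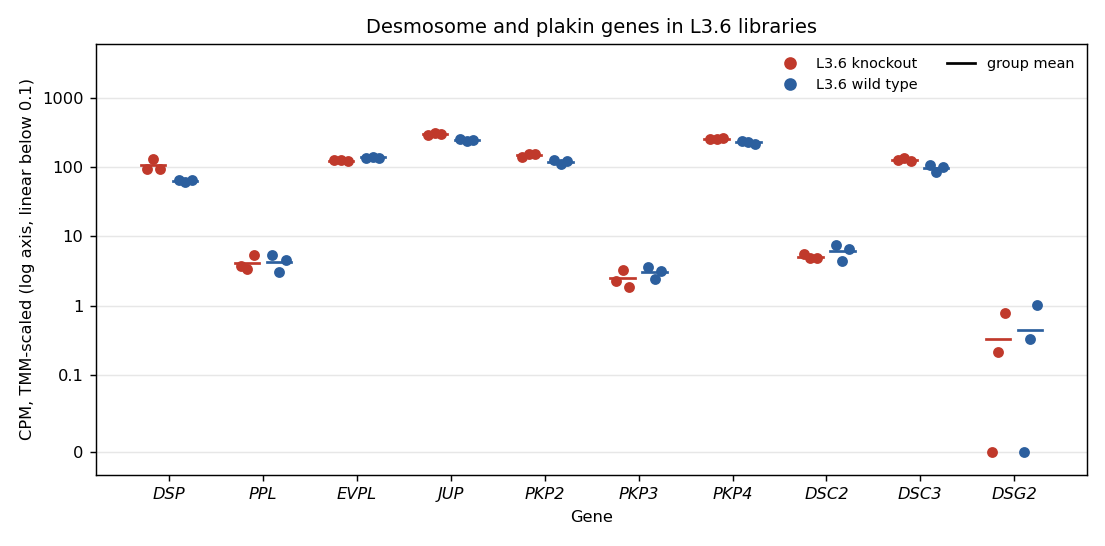
Level in CPM (TMM-scaled, log axis that is linear below 0.1) of the 10 genes in each L3.6 library, with 3 knockout libraries (red, left) and 3 wild-type libraries (blue, right) and a line at each group mean. DSP, JUP, PKP2, PKP4 and DSC3 lie higher and EVPL lower in all knockout libraries, while PPL, PKP3, DSC2 and DSG2 overlap.

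DSP, which clamps keratin filaments to the junction, stood at 95.3, 131 and 93.4 CPM in the knockout libraries, against 64.6, 61.7 and 64.6 CPM in the wild-type libraries. Every knockout library was above every wild-type library, and knockout replicate 2 was the highest. The means were 107 ± 21.1 CPM and 63.6 ± 1.7 CPM (SD, n = 3 each), which differ by 0.74 on the log2 scale (SE 0.129, 95% CI 0.44 to 1.04, edgeR adjusted p = 0.0118). Without wild-type replicate 2 the adjusted p was 0.0544, and it stayed under the threshold on leaving out any other library.

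EVPL, the larger partner in the envoplakin-periplakin pair, had 125, 126 and 122 CPM in the knockout libraries, against 137, 139 and 137 CPM in the wild-type libraries. The groups did not overlap, with the knockout lower, but the difference did not pass the test (log2 fold change -0.15, 95% CI -0.25 to -0.04, edgeR adjusted p = 0.0884). PPL was low, at 3.71, 3.38 and 5.42 CPM in the knockout and 5.35, 3.04 and 4.48 CPM in wild type. Its groups overlapped throughout (log2 fold change -0.05, 95% CI -0.74 to 0.63, edgeR adjusted p = 0.921), and the 2 plakins of the pair thus sat at very different levels in these rows.

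JUP, which links the cadherin tails to desmoplakin, was the most abundant member per kilobase of exon. It had 291, 306 and 298 CPM in the knockout libraries, against 257, 241 and 246 CPM in the wild-type libraries, with no overlap. The log2 fold change was 0.27 (SE 0.048, 95% CI 0.16 to 0.38, edgeR adjusted p = 0.0118). PKP2, a plakophilin of simple and basal epithelia, had 142, 156 and 152 CPM in the knockout and 125, 112 and 123 CPM in wild type. Its groups did not overlap either (log2 fold change 0.32, SE 0.063, 95% CI 0.18 to 0.47, edgeR adjusted p = 0.0172). Both calls were lost without knockout replicate 2 (adjusted p = 0.0751 for JUP and 0.0825 for PKP2), knockout replicate 3 (0.0881 and 0.0937) or wild-type replicate 2 (0.066 and 0.0682).

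PKP4, a plakophilin-like protein found in adherens junctions as well as desmosomes, had 251, 252 and 259 CPM in the knockout libraries, against 236, 227 and 218 CPM in the wild-type libraries. All 3 knockout libraries were higher, yet the difference did not pass over all genes (log2 fold change 0.16, 95% CI 0.05 to 0.27, edgeR adjusted p = 0.0735). PKP3, a plakophilin of most simple and stratified epithelia, had only 2.24, 3.31 and 1.86 CPM in the knockout and 3.63, 2.38 and 3.13 CPM in wild type, with overlap (log2 fold change -0.31, 95% CI -1.04 to 0.42, edgeR adjusted p = 0.558).

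The cadherin genes lie in a row on chromosome 18: DSC3 at chr18:30990008-31042815 and DSC2 at chr18:31058840-31102522 are neighbours on the minus strand with 16024 bp between them, and DSG2 at chr18:31498043-31549008 lies a further 395520 bp away on the plus strand. DSC3 had 125, 136 and 124 CPM in the knockout libraries, against 106, 86 and 99.2 CPM in the wild-type libraries. The groups did not overlap, and the means were 128 ± 6.6 CPM and 97.2 ± 10.3 CPM (SD, n = 3 each). This is a log2 fold change of 0.40 (SE 0.082, 95% CI 0.21 to 0.59, edgeR adjusted p = 0.0212). Of the 6 fits that left out 1 library, that without wild-type replicate 1 kept the call (edgeR adjusted p = 0.00847). It was lost without knockout replicate 1, 2 or 3 (0.0539, 0.0897 and 0.0661) and without wild-type replicate 2 or 3 (0.057 and 0.0608).

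DSC2, the neighbour of DSC3 and the usual desmocollin of simple epithelia, was far lower in L3.6, with 5.56, 4.82 and 4.8 CPM in the knockout and 7.58, 4.44 and 6.51 CPM in wild type. Its groups overlapped (log2 fold change -0.30, 95% CI -0.85 to 0.26, edgeR adjusted p = 0.451). DSG2, the desmoglein of simple epithelia, had 0, 3 and 10 counts in the knockout libraries and 0, 3 and 12 counts in the wild-type libraries. A count of 0 allows up to 0.232 CPM in that knockout library and up to 0.191 CPM in that wild-type library, counting error only, so DSG2 was too sparse to compare.

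The 4 L3.6 calls rested on fitting that line alone. In a single fit of all 12 human libraries, whose groups share one estimate of spread, the fold changes were 0.77 for DSP, 0.29 for JUP, 0.35 for PKP2 and 0.43 for DSC3 on the log2 scale and none passed (edgeR adjusted p = 0.104, 0.304, 0.297 and 0.833). That estimate includes PANC-1 empty vector replicate 2. The share of all genes called for L3.6 in that fit is not given here, so the loss is not shown to be particular to these 4 genes. The most abundant row, AC010970.1, took 4.34% to 6.96% of counts in the knockout libraries, against 6.05% to 14.1% in the wild-type libraries; without that row, an alternative added after seeing the data, the same 4 genes were called.

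In PANC-1, DSP fell 4.74-fold in K17 cells, the only call among the members with all 6 libraries. That call was lost in 5 of the 6 fits that left out 1 library. DSC2 was 3.12-fold and DSC3 7.1-fold higher in K17 cells in the fit of all libraries, with no overlap between groups, and each passed once empty vector replicate 2 was left out (2.64-fold and 4.72-fold). JUP and EVPL, the most abundant genes per kilobase after PKP4, did not pass in either fit. With all libraries, 0.644% of 16295 genes were called, 0.583% higher and 0.0614% lower, against 1 of 9 tested members, which was lower. Without empty vector replicate 2, 20.7% of 16640 genes were called, 11.4% higher and 9.25% lower, against 4 of 9 tested members, 2 in each direction, so the share of members called in that fit is to be read against a high background. The median log2 fold change of the 9 members was 0.05 with all libraries and 0.19 without that replicate, and that of all genes was 0.01 in both fits.

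**Figure D2:**
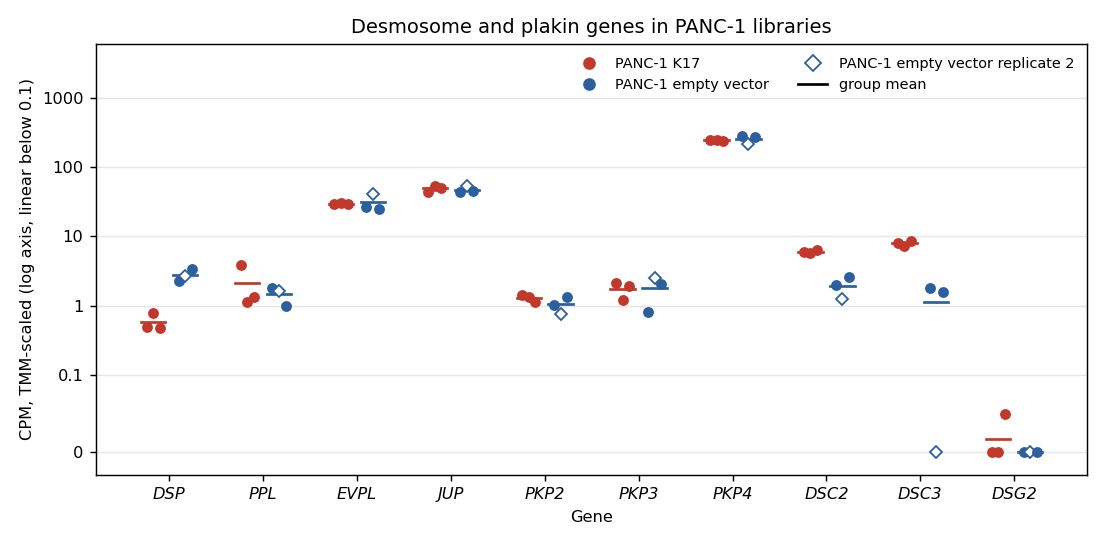
Level in CPM (TMM-scaled, log axis that is linear below 0.1) of the 10 genes in each PANC-1 library, with 3 K17 libraries (red, left) and 3 empty vector libraries (blue, right, replicate 2 as an open diamond) and a line at each group mean. DSP lies lower and DSC2 and DSC3 lie higher in every K17 library; DSC3 is at 0 in empty vector replicate 2.

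DSP stood at 0.487, 0.77 and 0.469 CPM (30, 46 and 29 counts) in the K17 libraries, against 2.24, 2.63 and 3.32 CPM (158, 179 and 212 counts) in the empty vector libraries. Every K17 library was below every empty vector library, and empty vector replicate 2 lay between the other two. The means were 0.575 ± 0.169 CPM and 2.73 ± 0.548 CPM (SD, n = 3 each), a difference of -2.25 on the log2 scale (SE 0.286, 95% CI -2.94 to -1.55, edgeR adjusted p = 0.0411). Without empty vector replicate 2 it was -2.27 (95% CI -2.95 to -1.60, edgeR adjusted p = 0.00182). On leaving out any other single library the size stayed between -2.08 and -2.51, but the adjusted p was 0.162 (without empty vector replicate 1), 0.164 (empty vector replicate 3), 0.288, 0.185 and 0.267 (K17 replicates 1, 2 and 3). In those 5 fits at most 1 of all genes was called.

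The other plakins gave no call in PANC-1. EVPL had 29.1, 30 and 29.5 CPM in the K17 libraries, against 26.6, 40.9 and 25.2 CPM in the empty vector libraries, where replicate 2 was far above the rest. Its log2 fold change was -0.06 (95% CI -0.58 to 0.45, edgeR adjusted p = 0.924) with all libraries and 0.19 (95% CI 0.06 to 0.32, edgeR adjusted p = 0.0566) without replicate 2, when the groups no longer overlapped. PPL had 3.88, 1.14 and 1.31 CPM with K17 and 1.78, 1.61 and 0.988 CPM with the empty vector. A single K17 library was high there, and the groups overlapped (log2 fold change 0.53, 95% CI -0.78 to 1.84, edgeR adjusted p = 0.76). It was 0.60 without empty vector replicate 2 (95% CI -1.02 to 2.22, edgeR adjusted p = 0.6).

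JUP had 43.8, 52.8 and 50.6 CPM in the K17 libraries, against 43.7, 53.1 and 45 CPM in the empty vector libraries. The ranges were nearly the same, with a log2 fold change of 0.05 (95% CI -0.29 to 0.40, edgeR adjusted p = 0.9), and of 0.14 without empty vector replicate 2 (edgeR adjusted p = 0.293). PKP4 had 247, 249 and 239 CPM with K17 and 279, 215 and 274 CPM with the empty vector, where replicate 2 was the lowest of all. With all libraries its groups overlapped (log2 fold change -0.07, 95% CI -0.43 to 0.30, edgeR adjusted p = 0.888). Without that replicate PKP4 was lower in K17 cells (log2 fold change -0.18, SE 0.029, edgeR adjusted p = 0.00581).

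PKP2 and PKP3 were near the bottom of the range in PANC-1. PKP2 had 1.4, 1.34 and 1.13 CPM in the K17 libraries, against 1.01, 0.763 and 1.35 CPM in the empty vector libraries, with overlap (log2 fold change 0.31, 95% CI -0.32 to 0.94, edgeR adjusted p = 0.716). PKP3 had 2.11, 1.22 and 1.89 CPM with K17 and 0.81, 2.47 and 2.07 CPM with the empty vector, again with overlap (log2 fold change -0.03, 95% CI -1.13 to 1.06, edgeR adjusted p = 0.982). Neither passed without empty vector replicate 2 (adjusted p = 0.747 for PKP2 and 0.728 for PKP3).

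DSC2 had 5.99, 5.72 and 6.38 CPM in the K17 libraries, against 2, 1.23 and 2.56 CPM in the empty vector libraries. The K17 libraries were all above the empty vector libraries, at 6.03 ± 0.331 CPM and 1.93 ± 0.665 CPM (SD, n = 3 each). That is a log2 fold change of 1.64 (SE 0.287, 95% CI 0.94 to 2.34), which missed the threshold (edgeR adjusted p = 0.0843). Without empty vector replicate 2 it was 1.40 (SE 0.148, 95% CI 1.05 to 1.75, edgeR adjusted p = 0.000904), and DESeq2 called it with all libraries (adjusted p = 6.26e-05).

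DSC3 had 8, 7.35 and 8.51 CPM (493, 439 and 527 counts) in the K17 libraries, against 1.79, 0 and 1.57 CPM (126, 0 and 100 counts) in the empty vector libraries. The K17 libraries were tightly grouped and all higher, whereas empty vector replicate 2 had no DSC3 count at all, which allows up to 0.044 CPM. With that library the log2 fold change was 2.83 with a wide error (SE 1.197, 95% CI -0.10 to 5.75, edgeR adjusted p = 0.522). Without it, the log2 fold change was 2.24 (SE 0.137, 95% CI 1.91 to 2.56, edgeR adjusted p = 0.000101). The row of DST, a plakin outside the list, was also low in that library: it stood between 2643 and 3001 CPM in the K17 libraries and between 205 and 2661 CPM in the empty vector libraries, and between 2478 and 2666 CPM in the empty vector group without replicate 2. DSG2 had 0, 0 and 3 counts with K17 and no count with the empty vector, where 0 allows up to 0.0426, 0.044 and 0.047 CPM in the 3 libraries.

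**Figure D3:**
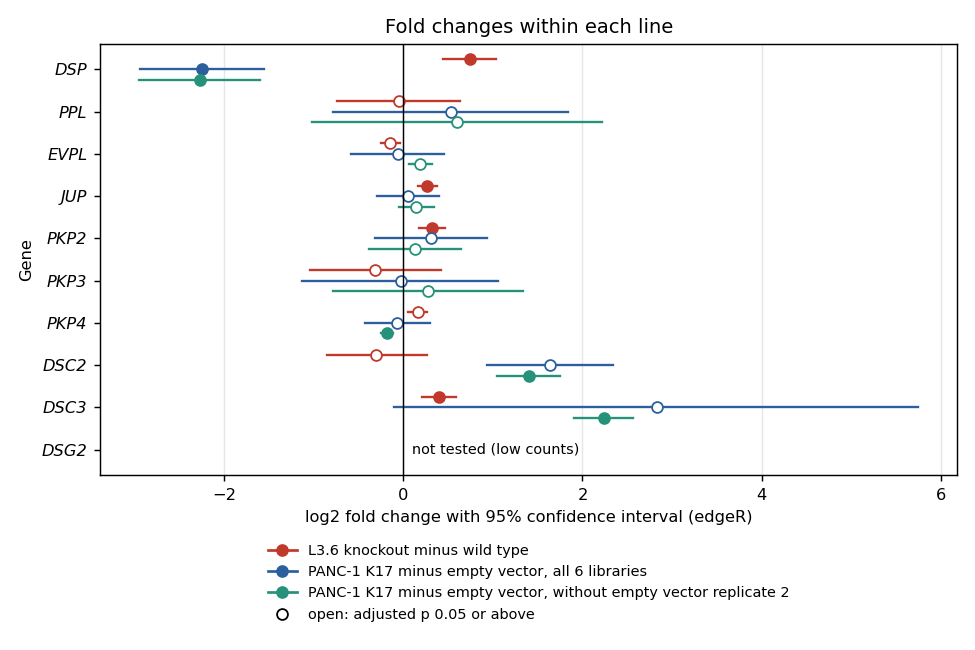
Log2 fold changes with 95% confidence intervals for L3.6 knockout minus wild type (red), PANC-1 K17 minus empty vector with all 6 libraries (blue) and without empty vector replicate 2 (green), with filled points at an adjusted p under 0.05. DSP lies right of 0 in the knockout (0.74) and left of 0 with added K17 (-2.25), DSC3 lies right of 0 in all 3, and DSG2 was not tested.

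DSP was lower wherever K17 was higher, in both lines: the wild-type libraries of L3.6 were below the knockout, and the K17 libraries of PANC-1 were below the empty vector. The 2 sizes differed. Written in the same direction, as K17-high over K17-low, the effect in PANC-1 minus the effect in L3.6 was -1.53 on the log2 scale for DSP (SE 0.303, 95% CI -2.20 to -0.86, edgeR adjusted p = 0.032, from 1 fit of the 12 human libraries), so the fall was larger in PANC-1. For KRT17 itself the same difference was 10.51 (SE 0.428, edgeR adjusted p = 1.05e-06), so the change in KRT17 was also far larger in PANC-1. Its part in the DSP difference was not tested. Among the 17583 genes of that fit, 1.54% were called for such a difference, 1.25% higher and 0.284% lower, and DSP was the only member called. The median of this difference was 0.36 over the members and -0.09 over all genes. The call held without L3.6 knockout replicate 2 (0.0486), empty vector replicate 1 (0.0417), empty vector replicate 2 (0.0157) or K17 replicate 2 (0.0306). It was lost without L3.6 knockout replicate 1 or 3 (0.134 and 0.107), wild-type replicate 1, 2 or 3 (0.0999, 0.123 and 0.0862), empty vector replicate 3 (0.0839) or K17 replicate 1 or 3 (0.132 and 0.131).

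In the separate fits of the lines, DSC3 ran in opposite directions relative to K17: it rose in the L3.6 knockout (0.40) and, without empty vector replicate 2, rose with added K17 in PANC-1 (2.24). The L3.6 call was lost in 5 of 6 fits that left out 1 library. It was also lost in the fit of the 12 libraries (edgeR adjusted p = 0.833), whose shared estimate of spread includes empty vector replicate 2, where DSC3 had no count. The difference of the K17 effects was 3.23 (SE 0.998, edgeR adjusted p = 0.172) with all libraries and 2.71 (edgeR adjusted p = 3.69e-06) without empty vector replicate 2. For DSC2 the difference was 1.33 (SE 0.362, edgeR adjusted p = 0.118), and 1.16 (edgeR adjusted p = 0.0319) without that library. JUP passed only without it (0.28, edgeR adjusted p = 0.507, against 0.49, edgeR adjusted p = 0.0258). The other members, DSP apart, did not pass in either fit, with PKP2 nearest at 0.61 with all libraries (SE 0.224, edgeR adjusted p = 0.246). The share of all genes called for this difference without empty vector replicate 2 is not given here. Within PANC-1, leaving out that library raised the share called from 0.644% to 20.7%. The calls gained without it are thus no result about these members alone.

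The 2 lines themselves differed in most of these genes. On a scale shared by the 12 libraries, L3.6 wild-type cells exceeded PANC-1 empty vector cells in 7 members and were below them in 1, PKP4. Leaving out empty vector replicate 2 gave 8 higher and 1 lower, PPL being added (log2 difference 1.33, edgeR adjusted p = 0.0426). The share of all genes called in that smaller fit is not given here, so the added call is no result about PPL alone. With all 12 libraries, 59.8% of the 17583 genes tested were called between the lines, 28.3% higher and 31.5% lower in L3.6. A difference in either direction was thus common. The members' median log2 difference was 1.81, and that of all genes was -0.01. These comparisons use the same wild-type and empty vector libraries as those within the lines. The libraries of each line also had their own range of totals, so differences of the lines and of their libraries cannot be told apart.

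**Figure D4:**
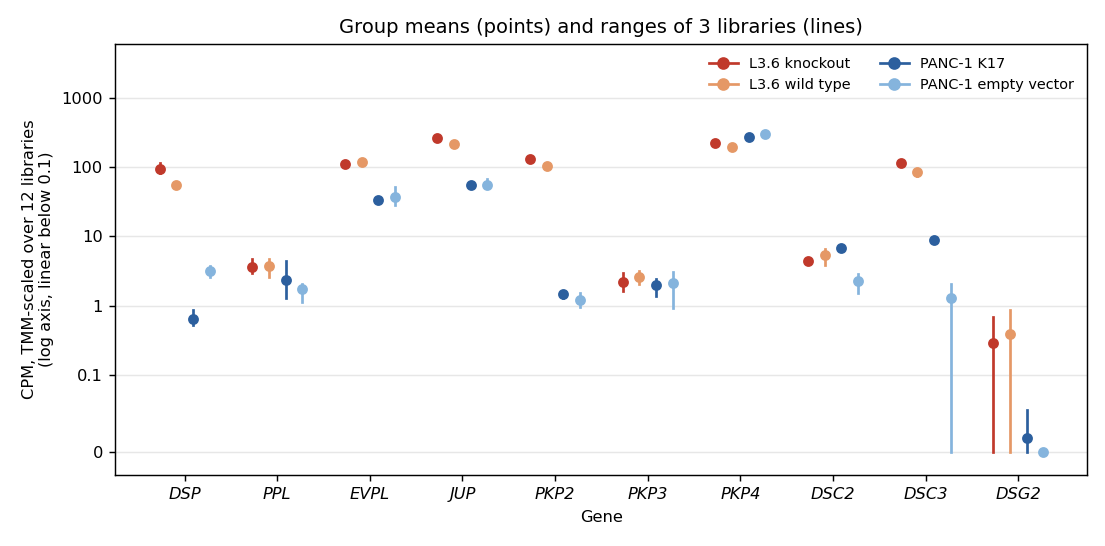
Group means (points) and ranges over 3 libraries (lines) of the 10 genes in CPM on the scale shared by the 12 human libraries (log axis that is linear below 0.1), with L3.6 knockout and wild type in red and orange and PANC-1 K17 and empty vector in dark and light blue. DSP, PKP2 and DSC3 are separated most between the lines, PKP4 is slightly higher in PANC-1, and PKP3 overlaps in all groups.

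PKP2 showed the widest gap among members with counts in both of these groups, 103 ± 6.31 CPM in L3.6 wild type and 1.21 ± 0.284 CPM in the PANC-1 empty vector group (SD, n = 3 each), a log2 difference of 6.41 (SE 0.192, edgeR adjusted p = 1.16e-09). DSC3 averaged 83.6 ± 9.07 CPM in L3.6 wild type and 1.27 ± 1.11 CPM in empty vector cells (log2 difference 6.02, SE 0.847, edgeR adjusted p = 9.94e-05). DSP averaged 54.8 ± 1.48 CPM and 3.2 ± 0.583 CPM in the same groups (log2 difference 4.10, SE 0.230, edgeR adjusted p = 7.95e-08). For each of these 3 genes, every L3.6 library was more than 10 times as high as any empty vector library.

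JUP and EVPL were present in both lines but higher in L3.6. JUP averaged 213 ± 7.85 CPM in L3.6 wild type and 55.8 ± 9.21 CPM in empty vector cells (log2 difference 1.93, edgeR adjusted p = 3.01e-07), and EVPL averaged 118 ± 1.33 CPM and 36.7 ± 12.6 CPM (1.69, edgeR adjusted p = 1.78e-05). PKP4 ran the other way, at 195 ± 8.58 CPM and 300 ± 27.3 CPM (log2 difference -0.62, edgeR adjusted p = 0.000238). PKP3 (0.32, edgeR adjusted p = 0.524) and PPL (1.11, edgeR adjusted p = 0.0626) did not pass.

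DSC2 depended on which PANC-1 group was used. It averaged 5.32 ± 1.38 CPM in L3.6 wild type and 2.24 ± 0.669 CPM in empty vector cells (log2 difference 1.25, edgeR adjusted p = 0.00154). Against PANC-1 K17 cells, at 6.79 ± 0.354 CPM, the difference was -0.35 and did not pass (edgeR adjusted p = 0.261). DSG2 passed on 15 counts in the L3.6 wild-type group and none in the empty vector group (edgeR adjusted p = 0.0186), and no fold is given for counts this low.

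Set against each other per kilobase of exon, the members had a different order in the 2 lines. In L3.6 knockout cells JUP led with 60.4 CPM per kb, followed by PKP4 (26.7), PKP2 (21.4), DSC3 (18.2), EVPL (16.5) and DSP (10.6), none of whose ranges overlapped the next. In L3.6 wild type the order of levels was JUP at 50.1 CPM per kb, PKP4 (23.8), EVPL (18.3), PKP2 (17), DSC3 (13.8) and DSP (6.31), again without overlap between neighbours. EVPL thus stood above PKP2 and DSC3 in wild type and below both in the knockout. PKP3, PPL and DSC2 followed in both groups, each under 1 CPM per kb and overlapping its neighbour, with DSG2 last.

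In PANC-1 PKP4 led instead, at 25.7 CPM per kb in K17 cells and 26.9 CPM per kb in empty vector cells, followed by JUP (9.93 and 9.56) and EVPL (3.93 and 4.11). In K17 cells DSC3 came next at 1.13 CPM per kb, with no overlap with DSC2 (0.483), and DSP came last but for DSG2 at 0.057, below PKP2 (0.183) with no overlap. In empty vector cells PKP3, DSP, PPL, DSC3, DSC2 and PKP2 lay between 0.471 and 0.148 CPM per kb, and each overlapped the next. Without empty vector replicate 2, DSC3 averaged 0.239 CPM per kb in empty vector cells and moved ahead of DSC2 (0.183) with no overlap, and K17 cells kept their order. The exon lengths come from all annotated transcripts of a gene, 18 for PKP4 and 3 for DSP, so these levels depend on the annotation.

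Other junction and keratin genes were read from fixed lists. Of the other desmosomal genes, DSG1, DSG4, DSC1 and PKP1 had at most 8 counts in any library and were not tested. No row was found under the symbols DSG3, PERP and CDSN, so these were not analysed. Among other plakins, DST, which anchors keratin at hemidesmosomes, rose in L3.6 knockout cells (264 ± 11.3 CPM, against 194 ± 7.07 CPM in wild type; log2 fold change 0.44, edgeR adjusted p = 0.00189) and EPPK1, epiplakin, fell (262 ± 17.3 CPM, against 390 ± 48.4 CPM; -0.58, edgeR adjusted p = 0.00735), while the remaining 2 of 4 did not pass. Of 9 tested adherens junction genes, 4 rose in the knockout, CDH3 (0.71), VCL (0.37), CTNNB1 (0.36) and CTNND1 (0.33), and none fell. The list's median log2 fold change was 0.13, against -0.01 over all genes.

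In the same knockout comparison, in which 6.1% of all genes rose and 3.51% fell, 1 of 11 tested tight junction genes rose, MARVELD3 (0.37, edgeR adjusted p = 0.0294), and 2 of 6 other keratins rose, KRT7 (0.52, edgeR adjusted p = 0.0326) and KRT19 (0.30, edgeR adjusted p = 0.0212). The single testable cornified envelope gene, SCEL, did not pass (0.19, edgeR adjusted p = 0.79). KRT6B, IVL, LOR, SPRR1B, SPRR2A and SNAI1 had no row under these symbols and were not analysed. Of 8 tested epithelial transcription factors, TP63, the master factor of basal and squamous cells, rose (387 ± 9.8 CPM in the knockout, against 278 ± 11 CPM in wild type; 0.48, edgeR adjusted p = 0.000945), and KLF5 (-1.08, edgeR adjusted p = 0.00269) and EHF (-0.50, edgeR adjusted p = 0.00181) fell. The junction repressors ZEB1 (-0.17, edgeR adjusted p = 0.364) and ZEB2 (-0.15, edgeR adjusted p = 0.747) did not pass.

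In PANC-1, with all 6 libraries, none of the 4 other plakins, 9 adherens junction genes or 6 keratins passed in edgeR (0, 0 and 1 of them had an unadjusted p under 0.05). Of 8 epithelial factors GRHL3, a grainyhead factor of surface epithelium, rose (42.6 ± 0.505 CPM with K17, against 14.9 ± 2 CPM with the empty vector; log2 fold change 1.52, edgeR adjusted p = 0.0231), and ZEB1 (0.14, edgeR adjusted p = 0.918) and ZEB2 (-0.07, edgeR adjusted p = 0.898) did not pass. Without empty vector replicate 2 the adherens junction genes AFDN (-0.37), CTNNB1 (-0.30), CTNNA1 (-0.19) and VCL (-0.12) were lower with K17, 4 of 9 tested, where 11.4% of all genes were higher and 9.25% lower. The claudins CLDN1 (1.15), CLDN3 (1.36) and CLDN4 (0.68) were higher, while 8 of 12 tested tight junction genes did not pass, among them CLDN7 (0.10, edgeR adjusted p = 0.539). CLDN1 and CLDN3 were low, at a mean of 1.01 and 0.363 CPM. In that fit KRT80 (1.81) and KRT8 (0.16) of 6 keratins and PLEC (0.26) and MACF1 (0.24) of 4 plakins were higher, GRHL3 (1.41) was higher and KLF5 (-0.75) and ZEB1 (-0.24) were lower. Of the 4 adherens junction genes that rose in the L3.6 knockout, CTNNB1 and VCL fell with K17 in that smaller PANC-1 fit. CDH3 (0.09, edgeR adjusted p = 0.809) and CTNND1 (0.04, edgeR adjusted p = 0.36) did not pass in it. AFDN (-0.04, edgeR adjusted p = 0.635) and CTNNA1 (0.07, edgeR adjusted p = 0.745) did not pass in L3.6. With all 6 PANC-1 libraries CTNNB1 (-0.13, edgeR adjusted p = 0.817) and VCL (-0.00, edgeR adjusted p = 0.993) did not pass.

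Between lines, TP63 (log2 difference 10.30), EHF (9.86), ELF3 (8.28) and KLF5 (6.33) were among 5 of 9 tested epithelial factors higher in L3.6 wild type than in the PANC-1 empty vector group, with 1 lower. Of the 3 tested junction repressors, ZEB1 (-2.78) and ZEB2 (-0.87) were lower in L3.6, and SNAI2 was higher, on 20 counts in the L3.6 wild-type group and none in the empty vector group (edgeR adjusted p = 0.0141). Of 12 tight junction genes 8 were higher and 3 lower in L3.6, and of 9 adherens junction genes 4 were higher and 3 lower, beside 28.3% higher and 31.5% lower over all genes. Other plakins were split, with EPPK1 (7.27) and PLEC (3.01) higher and DST (-3.60) and MACF1 (-2.04) lower in L3.6.

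Markers of other cell types were read as a check of the cultures. The summed level of 5 epithelial markers was 3681 to 4009 CPM in the knockout, against 3138 to 3512 CPM in wild type, and that of 9 mesenchymal markers 2104 to 2301 CPM, against 1379 to 1653 CPM, most of it VIM (2071 ± 96.1 CPM, against 1346 ± 127 CPM). VIM rose in the knockout (0.62, edgeR adjusted p = 0.00174), COL1A1 fell (-0.41, edgeR adjusted p = 0.0211), and 4 of 6 tested mesenchymal markers did not pass. Endothelial markers summed to 3.48 to 4.03 CPM in the knockout, against 8.78 to 12.9 CPM in wild type, with PECAM1 lower (-1.40, edgeR adjusted p = 0.00468). In PANC-1 the epithelial sum was 1005 to 1055 CPM with K17, against 927 to 1741 CPM with the empty vector, the mesenchymal sum 5209 to 5427 CPM, against 5052 to 8319 CPM, and COL1A1 rose with K17 (2.31, edgeR adjusted p = 0.0393, and 2.66, edgeR adjusted p = 3.83e-07, without empty vector replicate 2). Without that library the epithelial sum was 1006 to 1059 CPM with K17, against 936 to 946 CPM with the empty vector, and the mesenchymal sum 5241 to 5447 CPM, against 5061 to 5404 CPM. Immune markers summed to at most 2.46 CPM and acinar and islet markers to at most 0.217 CPM in any library. The immune marker CD3E and the islet genes INS and GCG were at 0 in all 12 libraries. In RNA from whole cultures, fewer cells of a type and less RNA per cell cannot be told apart, and the part of these shifts in the desmosomal changes was not tested.

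The genes whose 4 group means were most like those of a member were ranked by the root mean square difference of centred log2 CPM over the 4 human groups, among 9312 candidates. Nearest to DSP was TNFSF10, a death ligand, at 0.064, followed at a distance by the intestinal factor CDX2 at 0.403 and TRIP6 at 0.434. Nearest to JUP were LAMA5, a laminin chain, at 0.038, ZDHHC8 at 0.039 and DTD1 at 0.054. Nearest to PPL were NSD1 at 0.020, PDXK at 0.025 and XBP1 at 0.032. TNFSF10 was thus far closer to DSP than the next gene, whereas the 3 genes nearest to JUP and to PPL were about equally close. With 4 points per gene the ranking is a description.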

How the data were processed

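The 12 human libraries (4 groups of 3) were used, and the 6 mouse libraries were not. RNA came from TRIzol and libraries from the Illumina TruSeq RNA kit, according to the labels. The authors deposited whole-number counts per gene, not normalized. Tools named in the submitters' processing notes are bcl2fastq 1.8.4, STAR 2.7.3a and kallisto 0.46.2, with build GRCh38; which of them counted, the strand setting and the handling of shared reads were not stated. A symbol table gave names to 34349 of the 34505 human rows, and GENCODE 29 holds 34474.

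edgeR 4.0.16 in R 4.3.3 was run for each line separately (TMM factors, filterByExpr, robust quasi-likelihood fit, prior count 2), and p-values were adjusted by Benjamini-Hochberg over every gene tested, with calls under 0.05. The comparison between lines and the difference of K17 effects came from 1 fit of the 4 human groups. Levels are CPM on TMM-scaled totals, computed from the deposited counts. Alternatives used limma 3.58.1 and DESeq2 1.42.0, other scalings and filters, a replicate block and leaving out each library. The fits were also run on simulated data, where many smaller changes were missed and some calls were wrong. Misses were most common in PANC-1 and for the difference of K17 effects. Named genes were all 10 members, KRT17, and from each other list up to 4 genes past the threshold with the lowest adjusted p, or the 2 most abundant tested. CDH1, KRT18, KRT8, EPCAM, DST in PANC-1 and the untested desmosomal genes were named after their values were seen. So were the adherens junction genes given where they did not pass. The members and lists were chosen with earlier results of these data known. Floors for a count of 0 (3 counts) cover counting error only, and the 95% intervals of fold changes include the spread between libraries. A tight junction result in PANC-1 and a marker are not reported here.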

Additional observations from a re-analysis of the deposited data

Results flagged for a closer look

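The effect of K17 on DSP differed between the 2 lines: K17-high over K17-low in PANC-1 minus the same in L3.6 was -1.53 on the log2 scale (95% CI -2.20 to -0.86, edgeR quasi-likelihood adjusted p = 0.032, the interaction term in 1 fit of the 12 human libraries). Within each line every K17-high library had less DSP than every K17-low library, so the direction was the same in both lines. In that fit the DSP change within L3.6 did not pass by itself (edgeR adjusted p = 0.104). The change in KRT17 was also larger in PANC-1 (the same difference was 10.51, edgeR adjusted p = 1.05e-06), and its part in the DSP difference was not tested. Over the 12 alternatives that left out 1 library the DSP difference lay between -1.71 and -1.29, with edgeR adjusted p between 0.0157 and 0.134. The call was lost in 8 of them.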

How the results depend on the processing

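Counts of members called were within 1.5 times of the reported number under 21 of 21 alternatives between lines, 11 of 16 in L3.6, 5 of 15 in PANC-1 and 7 of 19 for the difference of K17 effects. For L3.6 (4 members), 1 was called with the replicate number as a block, 0 in 1 fit of the 4 human groups, and 0 to 5 on leaving out 1 library. For PANC-1 (1 member), 2 were called by DESeq2, 2 in 1 fit of the 4 human groups, 4 by limma-voom with quality weights per library (an alternative added after seeing the data), and 0 to 4 on leaving out 1 library, 4 being the fit without empty vector replicate 2. Between lines (8 members), 6 to 9 were called in all settings. For the difference of K17 effects (1 member), 0 were called with no filter, 0 by limma-voom, 2 by DESeq2, and 0 to 4 on leaving out 1 library. The share of all genes called moved between fits as well: in PANC-1 it was 0.644% with all libraries and 20.7% without empty vector replicate 2. A count of members is thus to be read against that share, and is no result about the members alone. With the replicate block 0 members and 0 of all 16295 genes were called in PANC-1 (1634 had an unadjusted p under 0.05 without the block, and DESeq2 called 595 without it), and DSP gave -2.26 (edgeR adjusted p = 0.288). In L3.6 the block left DSP (0.72, edgeR adjusted p = 0.0239) and called 665 of all genes, against 1335 without it. The numbers only name libraries: same-numbered libraries deviated from their group means with correlations of -0.12 to 0.02 in L3.6 and 0.02 to 0.09 in PANC-1.

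Signs turned for PPL in L3.6 (0.13 with quality weights, -0.29 to 0.15 on leaving out 1 library), for JUP in PANC-1 (-0.03 with upper-quartile factors, -0.01 in 1 fit of the 4 human groups, -0.00 to 0.14 on leaving out 1 library), for PKP3 in PANC-1 (0.09 with limma-voom, 0.06 with the replicate block, 0.48 with quality weights, -0.38 to 0.28 on leaving out 1 library) and for EVPL in PANC-1 (0.18 with quality weights, -0.19 to 0.19 on leaving out 1 library). PPL in PANC-1 ran between -0.25 and 0.83 and PKP4 between -0.18 and 0.00 on leaving out 1 library. Against PANC-1 K17 in place of the empty vector, the line difference was -0.35 for DSC2 and -0.78 for KRT17. In the difference of K17 effects, leaving out 1 library gave -0.65 to 0.03 for PKP3, -0.30 to 0.12 for EVPL, -0.26 to 0.82 for PPL and -0.29 to 4.01 for DSG2. The causes were not tested. No scaling moved the median of all genes beyond -0.07. Of all single-gene values under the alternatives, 658 kept their direction and their side of the threshold, 24 gained the call, 42 lost it and 23 changed sign.

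With 3 libraries a group and L3.6 totals from 9485257 counts, PPL, PKP3, DSC2 and DSG2 were too low there for modest differences to be detectable. In PANC-1 the 95% intervals of PPL, PKP3, DSC2 and DSC3 with all libraries reached past a log2 size of 1, so a gene that did not pass there is not shown to be alike in both groups.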
